A study of Homo sapiens with 9 samples.

Results

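The genes described here are 35 human genes of cholesterol and fatty acid synthesis and of their control by the sterol regulatory element-binding proteins (SREBPs), among them 3 genes that answer to liver X receptors (LXRs). They were chosen by gene symbol, and each matched 1 of the 60683 gene IDs in the count files. All 35 passed the filter on low counts in each of the 3 comparisons.

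HEK293T cells, a human embryonic kidney line, were compared in 3 groups, with 3 RNA-seq libraries in each. The parental cells carried no reporter. Clones 15 and 37 were each grown from 1 sorted cell after piggyBac transposition of a pair of reporters, ATG-(CAG)60-Myc-NLuc with 60 CAG units and ATG-(CAG)0-Myc-FLuc with 0, and the labels describe reporter expression as low in clone 15 and high in clone 37. All 3 lines grew in the same serum-containing medium, and no compound treatment is listed for these libraries. Each reporter level is therefore represented by 1 clone, and differences between the lines cannot be told apart from differences between any 2 clones of HEK293T. The labels do not say whether the replicates were separate cultures, so p values measure only the spread between these libraries.

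Cells make cholesterol from acetyl-CoA through mevalonate and squalene, and then close and trim the sterol ring. SREBPs, encoded by SREBF1 and SREBF2, are transcription factors held in the endoplasmic reticulum membrane by SCAP and the INSIG proteins. When membrane cholesterol is low, SCAP escorts the SREBPs to the Golgi, where proteases free the part that enters the nucleus and switches on genes of sterol and fatty acid synthesis. When sterol is plentiful, INSIG proteins keep SCAP in place, and oxysterols activate LXRs, which raise ABCA1, ABCG1 and MYLIP. The libraries measure RNA only, so SREBP cleavage, enzyme activity and sterol content were not analysed here.

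Gene counts summed to 10334090 to 13902872 per library in the parental and clone 37 groups and to 18654063 to 38093340 in clone 15. Clone 15 was read at 100 bp and the other groups at 75 bp, so in the 2 comparisons that include clone 15 the clone and its longer reads cannot be told apart. All 9 markers of HEK293 cells examined stood above 1 CPM (counts scaled to the gene total of each library) in every library, with sums of 1399 to 1711 CPM in parental cells, 891 to 956 CPM in clone 37 and 4147 to 4308 CPM in clone 15. That order follows the neurofilament genes NEFM and NEFL. Summed levels of hepatocyte, steroid-producing cell, blood and endothelial markers stayed under 1 CPM in every library, and SERPINA1, LEP, CD3E and HBB were at 0 in all 9. Adipocyte markers summed to 1.76 to 3.29 CPM, nearly all from PLIN1. Of 4 fibroblast markers, COL1A1 gave most of the sum, which was 34.7 to 37.8 CPM in parental cells, 18.9 to 20.9 CPM in clone 37 and 54.4 to 168 CPM in clone 15. COL1A2 was at 0 in all parental and clone 37 libraries and at 5.59 to 56.8 CPM in clone 15. The part of these marker differences in the results below was not tested.

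In clone 37 the SREBP regulators and most of the early pathway stood below parental levels. Of the 35 members, 26 were called by edgeR's quasi-likelihood test at an adjusted p under 0.05, 6 higher and 20 lower. Among all 16501 genes tested the same rule called 54.0%, 26.7% higher and 27.3% lower, and among tested genes with a mean of at least 5 CPM it called 61.0%. The members' median log2 fold change was -0.21, against 0.02 over all genes tested. Libraries did not overlap between the groups for 27 members, a property that 61.7% of tested genes shared. Only 2 members, INSIG1 and ABCG1, were called with at least a 2-fold difference, both lower, where 9.0% of all tested genes reached that size (5.62% lower and 3.38% higher).

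Clone 15 showed a split picture, with HMGCS1, IDI1, SQLE and INSIG2 lower than parental and the LXR targets ABCA1 and ABCG1 higher. Again 26 of 35 members were called, 14 higher and 12 lower, against 51.4% of 17703 genes tested (25.1% higher and 26.2% lower) and 58.5% of those with a mean of at least 5 CPM. The excess of higher calls did not hold in every setting. With each gene set against the median of its 100 nearest tested genes the split was 9 higher and 13 lower, and with counts from both strands it was 9 higher and 12 lower. The median of the members was 0.13 on the log2 scale and that of all genes was 0.02. Non-overlapping groups were seen for 31 members and for 59.5% of tested genes. At least 2-fold differences were called for 7 members, 4 of them lower, and for 10.1% of tested genes (4.89% lower and 5.2% higher). Against chromosome neighbours, only IDI1 of the 7 still differed by 2-fold, at -1.14 on the log2 scale. Both clones were compared with the same 3 parental libraries, so their values are given side by side and not as independent results. In bulk libraries such as these, fewer cells with a transcript and less of it per cell cannot be told apart.

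The clones also differed from each other, which does not involve the parental libraries. Clone 37 against clone 15 gave 28 called members, 9 higher and 19 lower in clone 37, beside 57.7% of 17712 genes tested (28.7% higher and 29.0% lower) and 65.8% of those with a mean of at least 5 CPM. Against chromosome neighbours the count was 21, 5 higher and 16 lower. The members' median was -0.24, and the median of all genes was -0.00154. Groups did not overlap for 32 members and for 63.5% of tested genes. TM7SF2, ABCA1 and ABCG1 were called at least 2-fold lower in clone 37, and 11.9% of tested genes differed by that much (6.99% lower and 4.92% higher).

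**Figure D1:**
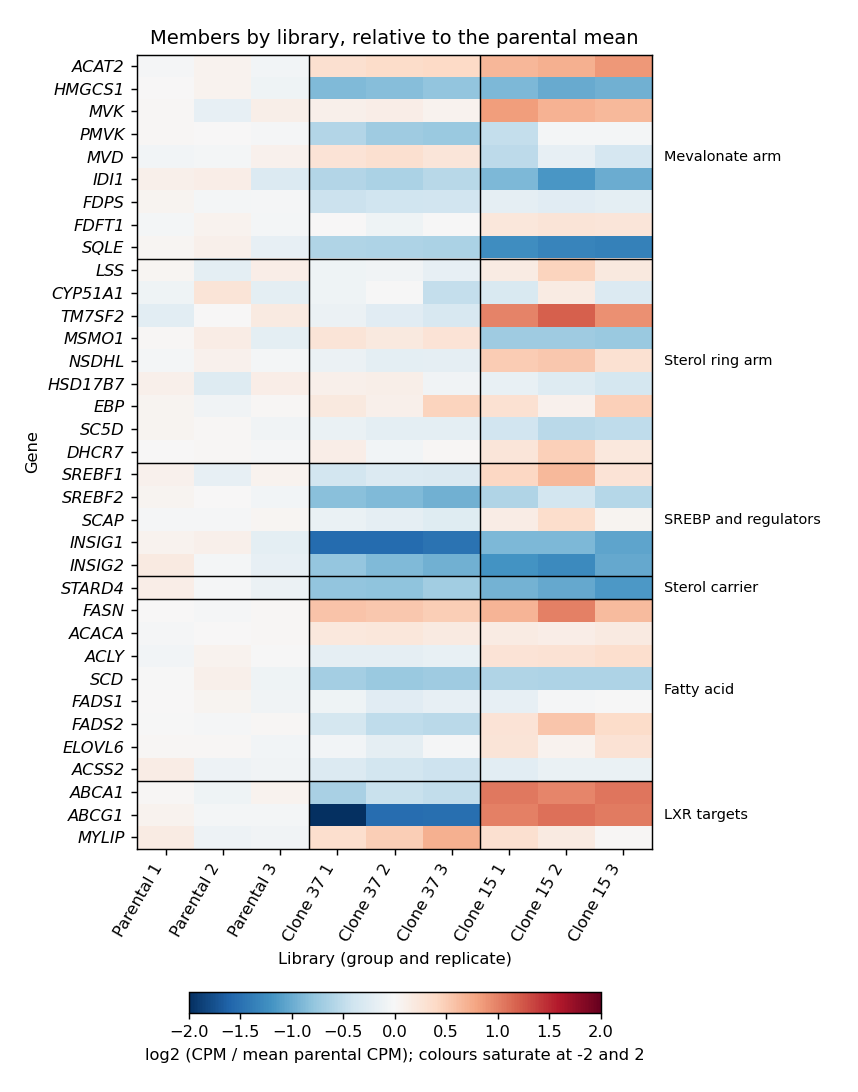
Level of each of the 35 genes in each of the 9 libraries, coloured as the log2 difference from the mean of the parental libraries, with genes (rows) in the order of the pathway and libraries (columns) by group. The 3 libraries of a clone resemble each other; INSIG1, HMGCS1, SREBF2, INSIG2 and STARD4 are below parental in both clones, while ABCA1 and ABCG1 are below it in clone 37 and above it in clone 15.

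**Figure D2:**
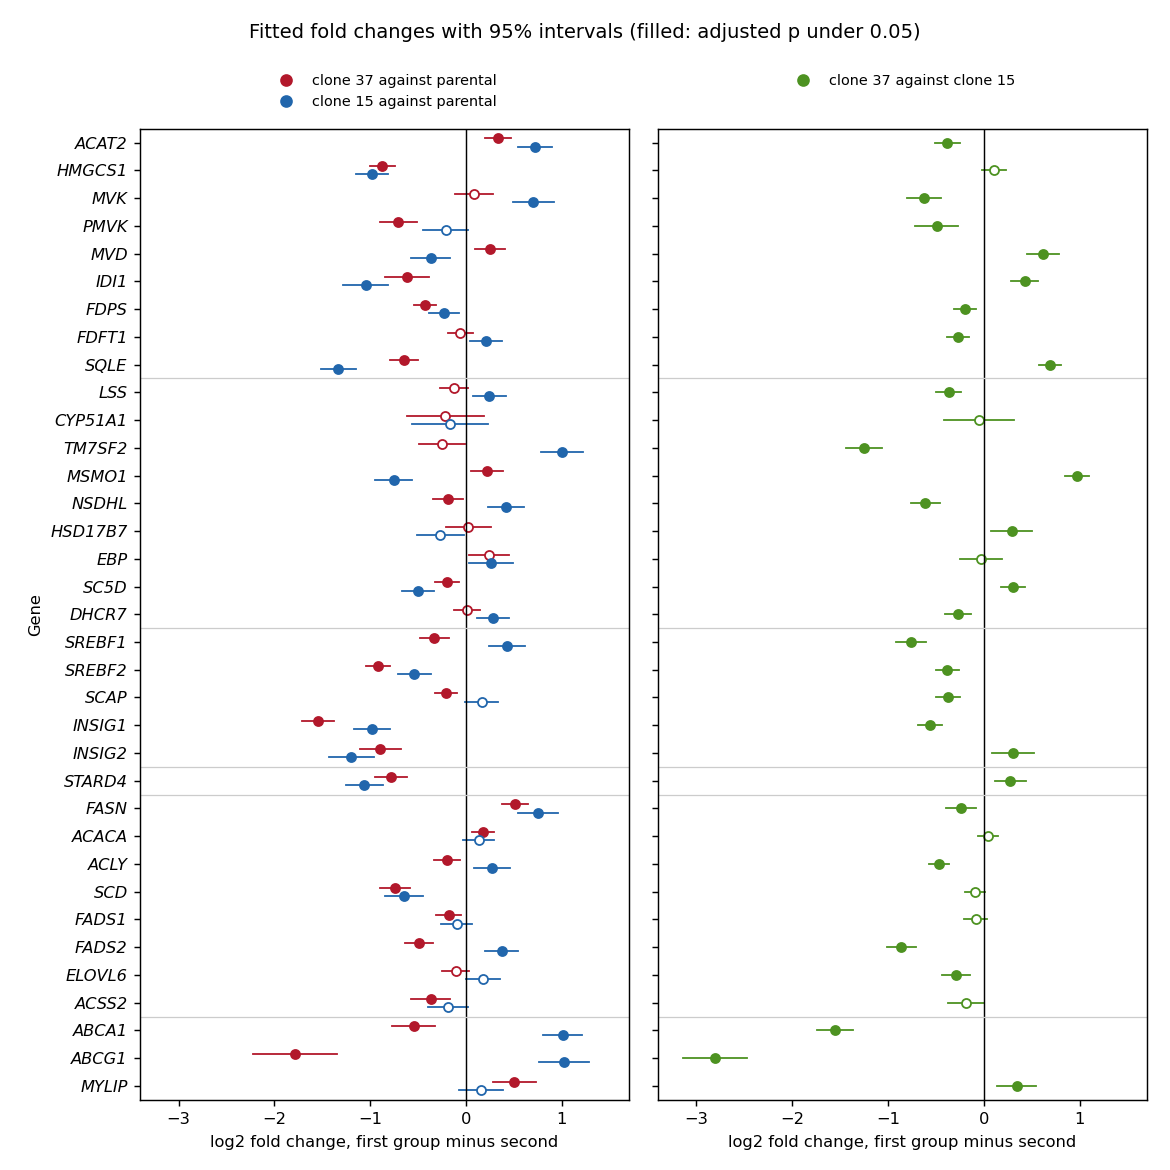
Fitted log2 fold change (horizontal axis) of each gene (rows) with its 95% interval from edgeR, for each clone against parental (left) and for clone 37 against clone 15 (right); filled points have an adjusted p under 0.05. INSIG1 at -1.55 and ABCG1 at -1.78 lie farthest to the left in clone 37 against parental, and SQLE at -1.34 in clone 15.

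Promoter sequences were read from RefSeq (GRCh38.p14) in windows from 250 bases before to 50 bases after each listed start. The table held 41 such windows for 30 of the 35 members; ACAT2, FDFT1, SQLE, FASN and ABCG1 had none. On either strand, the sterol regulatory element core TCACNCCAC, where SREBPs bind, matched 1 member, SREBF2 itself. That is 2.44% of member windows against 1.13% of all 35116 windows in the table. Only exact matches inside these windows were counted, so variant or more distant elements would be missed. CCAAT, the box of nuclear factor Y, matched at least 1 window of 22 members, or 63.4% of member windows against 34.6% of all windows. GGGCGG, the GC box of Sp1, matched 29 of 30 members, with NSDHL as the exception, and 90.2% of member windows against 45.0% of all windows. CACGTG, the E-box, matched ABCA1, INSIG1, LSS, SC5D and SCAP, or 14.6% of member windows against 7.26%. The motifs do not overlap each other in the sequences printed. These matches describe letters in short windows, not binding.

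The upstream sequences of 6 genes that the results turn on are shown so that the boxes can be seen: SREBF2, HMGCS1, STARD4 and INSIG1 were lower in both clones, MSMO1 went in opposite directions in them, and ABCA1 is an LXR target. Each is written 5′ to 3′ on the gene's own strand, ends before the gene's start, and has the sterol element core, CCAAT on either strand (ATTGG is its reverse) and CACGTG in capitals.
SREBF2, chr22:41832855-41833078, plus strand: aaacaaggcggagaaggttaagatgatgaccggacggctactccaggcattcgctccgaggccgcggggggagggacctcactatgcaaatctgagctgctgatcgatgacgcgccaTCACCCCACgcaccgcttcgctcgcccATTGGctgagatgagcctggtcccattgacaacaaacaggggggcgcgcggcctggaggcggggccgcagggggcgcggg
HMGCS1, chr5:43313513-43313662, minus strand: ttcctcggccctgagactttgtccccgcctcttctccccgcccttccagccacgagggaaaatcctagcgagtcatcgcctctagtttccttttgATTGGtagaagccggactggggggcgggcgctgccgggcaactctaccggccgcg
STARD4, chr5:111512591-111512785, minus strand: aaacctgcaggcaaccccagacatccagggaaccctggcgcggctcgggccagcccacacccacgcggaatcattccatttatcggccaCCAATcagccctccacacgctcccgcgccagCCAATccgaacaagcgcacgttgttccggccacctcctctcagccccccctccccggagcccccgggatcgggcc
INSIG1, chr7:155297628-155297775, plus strand: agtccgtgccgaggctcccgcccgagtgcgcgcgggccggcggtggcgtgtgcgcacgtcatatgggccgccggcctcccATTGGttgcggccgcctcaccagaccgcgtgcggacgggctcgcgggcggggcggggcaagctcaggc
MSMO1, chr4:165327419-165327622, plus strand: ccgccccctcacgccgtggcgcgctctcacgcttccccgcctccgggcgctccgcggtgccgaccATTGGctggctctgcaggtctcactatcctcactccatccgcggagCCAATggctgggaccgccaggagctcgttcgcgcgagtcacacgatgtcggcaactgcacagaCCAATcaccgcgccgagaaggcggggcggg
ABCA1, chr9:104928238-104928405, minus strand: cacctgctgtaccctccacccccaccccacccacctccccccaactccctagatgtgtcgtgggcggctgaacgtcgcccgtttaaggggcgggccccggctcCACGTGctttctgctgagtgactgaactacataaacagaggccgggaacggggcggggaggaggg
The SREBF2 stretch carries the sterol element core, whose first base lies 133 bases before the RefSeq start, with a CCAAT box 106 bases before it. The printed HMGCS1 and INSIG1 stretches each hold 1 CCAAT box, 155 and 170 bases before the start, and that of STARD4 holds 2, at 161 and 130 bases. The printed MSMO1 stretch has 3, at 185, 139 and 76 bases. Nearer the start than the printed bases, the windows hold 1 more CCAAT box in HMGCS1, at 100 bases, and 1 more in MSMO1, at 34 bases, and an E-box in INSIG1, at 55 bases. ABCA1 has no CCAAT box in its window, and its E-box lies 147 bases before the start. HMGCS1 also had another window, at 43313132 to 43313431, with 0 CCAAT boxes. The window with the most CCAAT boxes was chosen for printing, so the choice favoured a box in HMGCS1.

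In the mevalonate arm, from acetoacetyl-CoA to squalene epoxide, clone 37 had 2 of 9 genes called higher and 5 lower than parental, where 26.7% of all tested genes were higher and 27.3% lower. Clone 15 had 3 higher and 5 lower, beside 25.1% and 26.2% of all tested genes. Summed over the 9 genes, the arm took 909 to 1016 CPM of each parental library, 737 to 750.3 CPM in clone 37 and 711 to 727 CPM in clone 15, so the parental range lay above both clones. SQLE, HMGCS1 and IDI1 lost the most CPM, whereas ACAT2, at the entry of the pathway, went up.

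HMGCS1 (chromosome 5, 43289395 to 43313512, minus strand, in GENCODE 29 on GRCh38), the cytosolic synthase that makes HMG-CoA, stood at 163, 169 and 152 CPM in the parental libraries, at 87.1, 89.03 and 93.1 CPM in clone 37 and at 87.0, 80.5 and 82.6 CPM in clone 15. The lowest parental library was far above the highest library of either clone. It fell by 0.87 ± 0.06 (SE) on the log2 scale in clone 37 (edgeR adjusted p = 3.2e-09) and by 0.98 ± 0.08 in clone 15 (edgeR adjusted p = 3.58e-10). The clones differed by 0.11, with a 95% interval of -0.02 to 0.23 and an edgeR adjusted p of 0.126.

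SQLE, squalene epoxidase, which makes the substrate of ring closure, measured 269, 282 and 234 CPM in parental cells, 172, 172 and 169 CPM in clone 37 and 111, 105 and 103 CPM in clone 15. The 3 groups formed 3 separate steps, with clone 15 lowest. In clone 37 SQLE fell by 0.64 ± 0.07 (edgeR adjusted p = 5.82e-07), and in clone 15 by 1.34 ± 0.09 (edgeR adjusted p = 5.56e-12), the largest decrease of any member there. Clone 37 exceeded clone 15 by 0.69 ± 0.06 (edgeR adjusted p = 2.13e-11). The 100 tested genes nearest to SQLE on chromosome 8 had a median of 0.62 in that same comparison, and against them the difference was 0.07 (edgeR adjusted p = 0.34).

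IDI1, the isomerase that interconverts the 5-carbon isoprenoid units, had 140, 141 and 107.5 CPM in parental cells, 85.9, 83.3 and 88.2 CPM in clone 37 and 69.2, 57.5 and 65.1 CPM in clone 15. Parental replicate 3 was well below the other two parental libraries and still above all libraries of the clones. The log2 fold change was -0.62 ± 0.10 in clone 37 (edgeR adjusted p = 0.000551) and -1.05 ± 0.11 in clone 15 (edgeR adjusted p = 6.24e-07), and clone 37 exceeded clone 15 by 0.43 ± 0.07 (edgeR adjusted p = 8.13e-06).

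PMVK, the second of the mevalonate kinases, was lowest in clone 37, with 17.2, 15.8 and 15.4 CPM there against 26.2, 26.0 and 25.3 CPM in parental cells. In clone 15 it read 18.6, 25.2 and 25.1 CPM, with replicate 1 low and the other two just under the parental range. PMVK fell by 0.71 ± 0.09 in clone 37 (edgeR adjusted p = 4.31e-06), while the difference of -0.21 in clone 15 had an edgeR adjusted p of 0.124. With GC and length trends removed the clone 15 value was -0.50 (edgeR adjusted p = 0.00216). Across the 16 alternatives the clone 15 value lay between -0.50 and -0.05, and no other alternative gave a call.

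MVK, which phosphorylates mevalonate, showed the reverse arrangement. Its parental and clone 37 libraries overlapped, at 19.6, 17.3 and 20.9 CPM and at 20.7, 21.2 and 20.2 CPM, and clone 15 was higher than both, at 34.2, 31.1 and 30.3 CPM. The increase in clone 15 was 0.70 ± 0.10 (edgeR adjusted p = 2.57e-06), and clone 37 lay below clone 15, with a log2 fold change of -0.62 ± 0.09 (edgeR adjusted p = 4.11e-07). For clone 37 against parental the difference was 0.08, with a 95% interval of -0.12 to 0.28.

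MVD, the decarboxylase that ends the mevalonate steps, was called in opposite directions in the clones. Its levels were 34.1, 34.3 and 37.7 CPM in parental cells, 42.6, 44.1 and 41.9 CPM in clone 37 and 24.6, 31.7 and 27.9 CPM in clone 15, and no group overlapped another. It rose by 0.25 ± 0.07 in clone 37 (edgeR adjusted p = 0.00707) and fell by 0.37 ± 0.10 in clone 15 (edgeR adjusted p = 0.00325). Clone 37 exceeded clone 15 by 0.62 ± 0.08 (edgeR adjusted p = 2.48e-07). MVD's 100 nearest tested genes on chromosome 16 had a median of 0.67 in clone 37 and of 0.76 between the clones, and relative to them MVD had a log2 fold change of -0.41 in clone 37 (edgeR adjusted p = 0.000161) and of -0.14 between the clones (edgeR adjusted p = 0.171).

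ACAT2, the cytosolic thiolase that joins acetyl-CoA units, rose in both clones, from 59.2 to 64.6 CPM in parental cells to 76.3 to 81.2 CPM in clone 37 and 96.7 to 112 CPM in clone 15. Its log2 fold changes were 0.33 ± 0.06 (edgeR adjusted p = 0.000302) and 0.72 ± 0.09 (edgeR adjusted p = 1.76e-07). Other annotated genes on the opposite strand overlapped 52.3% of ACAT2 exon bases, and their part in its counts was not tested. FDPS, which makes farnesyl diphosphate, fell modestly, by 0.43 ± 0.06 in clone 37 and by 0.23 ± 0.08 in clone 15, where unstranded counts gave -0.14 (edgeR adjusted p = 0.248) and the value against neighbours was -0.15 (edgeR adjusted p = 0.118). FDFT1, squalene synthase, differed by -0.06 in clone 37 (edgeR adjusted p = 0.436) and rose by 0.21 ± 0.08 in clone 15 (edgeR adjusted p = 0.0311). The FDFT1 call in clone 15 was lost without parental replicate 1 (0.16, edgeR adjusted p = 0.179) and without parental replicate 3 (0.15, edgeR adjusted p = 0.211).

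The sterol ring arm, from squalene epoxide to cholesterol, held its summed level while single enzymes moved. The 9 genes summed to 500.0 to 513 CPM in parental cells, 489 to 515 CPM in clone 37 and 491 to 545 CPM in clone 15, ranges that overlap. Clone 37 had 1 gene called higher and 2 lower, where 54.0% of all tested genes were called, and clone 15 had 5 higher and 2 lower, with 51.4% of all genes called. Of the 5, LSS, EBP and DHCR7 were not called against chromosome neighbours. The largest opposing changes were those of TM7SF2 and MSMO1.

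TM7SF2, a sterol C14 reductase of the endoplasmic reticulum, read 16.1, 18.7 and 21.3 CPM in parental cells, 17.3, 15.97 and 15.0 CPM in clone 37 and 37.0, 42.8 and 35.3 CPM in clone 15. Only the clone 15 libraries stood apart. It rose by 1.00 ± 0.11 in clone 15 (edgeR adjusted p = 3.27e-08), a value of 0.63 against its chromosome neighbours (edgeR adjusted p = 4.93e-05), and clone 37 was below clone 15, with a log2 fold change of -1.25 ± 0.09 (edgeR adjusted p = 2.47e-12). The difference of -0.25 between clone 37 and parental had an edgeR adjusted p of 0.0683, and passed the threshold without parental replicate 1 (-0.35, edgeR adjusted p = 0.0183) and without parental replicate 2 (-0.25, edgeR adjusted p = 0.0340).

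MSMO1, the oxidase that starts removal of the C4 methyl groups, went the other way. It measured 84.6, 92.4 and 73.2 CPM in parental cells, 99.6, 95.4 and 101 CPM in clone 37 and 51.2, 50.7 and 49.6 CPM in clone 15, without overlap between groups. It fell by 0.76 ± 0.09 in clone 15 (edgeR adjusted p = 2.46e-07), and clone 37 exceeded clone 15 by 0.97 ± 0.06 (edgeR adjusted p = 1.17e-13). The rise of 0.22 ± 0.08 in clone 37 (edgeR adjusted p = 0.0287) was not robust. It was 0.08 (edgeR adjusted p = 0.383) without parental replicate 3, 0.22 (0.0710) without parental replicate 1, 0.21 (0.0924) without clone 37 replicate 1 and 0.17 (0.186) without clone 37 replicate 3. Against chromosome neighbours it was -0.15 (edgeR adjusted p = 0.127), and the difference between the clones was 0.51 (edgeR adjusted p = 6.71e-08).

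NSDHL, which acts in the same C4 demethylation, had 39.5, 43.0 and 39.5 CPM in parental cells, 37.6, 35.5 and 35.9 CPM in clone 37 and 57.6, 59.0 and 50.0 CPM in clone 15. Clone 15 was plainly highest, and clone 37 sat just under the parental range. NSDHL rose by 0.42 ± 0.09 in clone 15 (edgeR adjusted p = 0.000492) and was lower in clone 37 than in clone 15, with a log2 fold change of -0.61 ± 0.07 (edgeR adjusted p = 5.83e-08). Against chromosome neighbours the difference between the clones was -0.17 and no longer called (edgeR adjusted p = 0.0531). Its small decrease in clone 37, -0.19 ± 0.08 (edgeR adjusted p = 0.0417), had an edgeR adjusted p of 0.0756 with the replicate number as a block. The call was also lost without parental replicate 2 (-0.13, 0.107) and without clone 37 replicate 1 (-0.22, 0.0662), replicate 2 (-0.16, 0.147) or replicate 3 (-0.21, 0.0951). Against neighbours its sign turned, to 0.20 (edgeR adjusted p = 0.0397).

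SC5D, the C5 desaturase near the end of the pathway, stepped down from 126 to 136 CPM in parental cells to 115 to 120.3 CPM in clone 37 and 90.4 to 101 CPM in clone 15. It fell by 0.20 ± 0.06 (edgeR adjusted p = 0.00762) and by 0.50 ± 0.08 (edgeR adjusted p = 1.1e-05), and clone 37 exceeded clone 15 by 0.30 ± 0.06 (edgeR adjusted p = 9.99e-05). DHCR7, the reductase that completes cholesterol, overlapped with parental in clone 37 (0.01) and rose by 0.28 ± 0.08 in clone 15 (edgeR adjusted p = 0.00592). LSS, which closes the ring to lanosterol, differed by -0.12 in clone 37 (edgeR adjusted p = 0.142) and rose by 0.24 ± 0.09 in clone 15 (edgeR adjusted p = 0.0196). EBP, the sterol isomerase, differed by 0.24 in clone 37 (edgeR adjusted p = 0.0544) and by 0.26 in clone 15 (edgeR adjusted p = 0.0491).

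These 3 small increases in clone 15 were lost when single libraries were left out. DHCR7 had 0.24 (edgeR adjusted p = 0.0509) without parental replicate 3. LSS had 0.24 (0.0546) without parental replicate 1, 0.18 (0.0725) without parental replicate 2 and 0.18 (0.0812) without clone 15 replicate 2. The EBP call was lost without any 1 of the parental replicates (0.25 to 0.26), without clone 15 replicate 1 (0.27) and without clone 15 replicate 3 (0.19), and under the replicate block (edgeR adjusted p = 0.0586). In clone 37, leaving out parental replicate 2 gave calls for LSS (-0.21, 0.000595) and EBP (0.21, 0.0415), and leaving out clone 37 replicate 2 gave one for EBP (0.31, 0.0285).

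The 2 remaining ring enzymes share sequence with other loci. CYP51A1, the C14 demethylase, had 79.4% of its exon bases covered by other annotated genes on its strand and 88.4% of its 75-base words shared with other genes, so its counts of 50 to 173 per library are uncertain. It read 4.90 to 6.69 CPM in parental cells, 4.05 to 5.61 CPM in clone 37 and 4.54 to 6.29 CPM in clone 15, and was called in none of the 3 edgeR comparisons (adjusted p of 0.357, 0.495 and 0.828). HSD17B7, the 3-ketosteroid reductase of the pathway, shared 9.76% of its 75-base words with a pseudogene and related loci, and 5.72% of its 100-base words. It overlapped with parental in both clones and was higher in clone 37 than in clone 15 by 0.29 ± 0.10 (edgeR adjusted p = 0.0175), a call lost without clone 37 replicate 1 (0.27, 0.0679), clone 37 replicate 2 (0.27, 0.0680) or clone 15 replicate 3 (0.23, 0.0681). HSD17B7 differed by -0.27 in clone 15 (edgeR adjusted p = 0.0639), and was called lower without parental replicate 2 (-0.36, 0.0138).

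The SREBP regulators changed most as a group in clone 37, where all 5 were called lower, against 27.3% of all tested genes. Clone 15 had 3 lower and SREBF1 higher, against 26.2% lower and 25.1% higher. Their summed level was 791 to 868 CPM in parental cells, 458 to 478 CPM in clone 37 and 596 to 698 CPM in clone 15, with no overlap. INSIG1, INSIG2 and SREBF2 were down in both clones, and SREBF1 went in opposite directions.

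INSIG1 (chromosome 7, 155297776 to 155310235, plus strand), the sterol-sensing retention protein and itself an SREBP target, stood at 263, 270.2 and 218 CPM in parental cells, at 85.8, 85.9 and 90.3 CPM in clone 37 and at 134, 134 and 120.1 CPM in clone 15. Clone 37 was lowest and the 3 groups were well separated. INSIG1 fell by 1.55 ± 0.08 in clone 37 (edgeR adjusted p = 3.07e-10), or 2.92-fold lower, and by 0.99 ± 0.09 in clone 15 (edgeR adjusted p = 2.92e-09). In clone 37 its 100 nearest tested genes had a median of -0.91, and against them INSIG1 was still lower, at -0.64 (edgeR adjusted p = 9.07e-06). In clone 15 the neighbours' median was -0.02.

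Between the clones INSIG1 was lower in clone 37, with a log2 fold change of -0.56 ± 0.06 (edgeR adjusted p = 4.6e-09), while its neighbours had a median of -0.85. Against those neighbours the sign turned, to 0.28 (edgeR adjusted p = 0.000248), so the direction between the clones holds for the INSIG1 level and not for its level relative to nearby genes.

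INSIG2, the second INSIG protein, had 34.97, 30.1 and 27.6 CPM in parental cells, 18.0, 16.7 and 15.9 CPM in clone 37 and 13.4, 12.7 and 15.1 CPM in clone 15. Both clones lay below every parental library and close to each other. It fell by 0.89 ± 0.10 in clone 37 (edgeR adjusted p = 9.97e-07) and by 1.20 ± 0.11 in clone 15 (edgeR adjusted p = 3.83e-09). Its neighbours were also lower, with medians of -0.33 and -0.48, and against them INSIG2 had -0.56 in clone 37 and -0.72 in clone 15 (edgeR adjusted p = 0.00024 and 1.4e-05). The excess of clone 37 over clone 15, 0.30 ± 0.11 (edgeR adjusted p = 0.0174), was lost without clone 37 replicate 1 (0.26, 0.0910) and without clone 15 replicate 2 (0.23, 0.0620), against neighbours (0.22, 0.0955) and after removal of GC and length trends (0.07, 0.593).

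SREBF2 (chromosome 22, 41833079 to 41907308, plus strand), which encodes the SREBP most tied to cholesterol genes, read 358, 345 and 330.0 CPM in parental cells, 193, 186 and 177 CPM in clone 37 and 228, 266 and 233 CPM in clone 15. Parental cells were highest and clone 37 lowest, without overlap. It fell by 0.92 ± 0.06 in clone 37 (edgeR adjusted p = 1.11e-09) and by 0.54 ± 0.08 in clone 15 (edgeR adjusted p = 8.63e-06), and clone 37 was below clone 15, at -0.38 ± 0.06 (edgeR adjusted p = 2.16e-06). SREBF2 is the one member whose promoter window held the sterol element core, printed above.

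SREBF1, whose SREBP acts mainly on fatty acid genes, measured 67.4, 56.9 and 66.4 CPM in parental cells, 49.2, 52.4 and 52.3 CPM in clone 37 and 84.7, 99.4 and 77.2 CPM in clone 15. The parental libraries lay between the clones. It fell by 0.33 ± 0.07 in clone 37 (edgeR adjusted p = 0.000806) and rose by 0.43 ± 0.09 in clone 15 (edgeR adjusted p = 0.000277), and the clones differed by -0.76 ± 0.07 (edgeR adjusted p = 1.78e-09). Against its 100 nearest tested genes, which had a median of 0.31 in clone 15, the clone 15 difference was 0.12 (edgeR adjusted p = 0.287). SCAP, the escort protein, fell by 0.21 ± 0.06 in clone 37 (edgeR adjusted p = 0.0038). In clone 15 SCAP differed by 0.16 (edgeR adjusted p = 0.102), which became 0.24 (0.0251) without clone 15 replicate 3.

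STARD4, a soluble carrier that moves sterol between membranes and a known SREBP target, had 67.4, 60.3 and 56.3 CPM in parental cells, 35.4, 35.2 and 37.8 CPM in clone 37 and 31.9, 30.2 and 27.6 CPM in clone 15. All 6 clone libraries lay below all 3 parental ones. It fell by 0.78 ± 0.08 in clone 37 (edgeR adjusted p = 2.28e-07) and by 1.06 ± 0.09 in clone 15 (edgeR adjusted p = 9.49e-10). Clone 37 exceeded clone 15 by 0.27 ± 0.08 (edgeR adjusted p = 0.00404), a call lost after removal of GC and length trends (0.02, 0.844) and against chromosome neighbours (0.16, 0.0904).

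**Figure D3:**
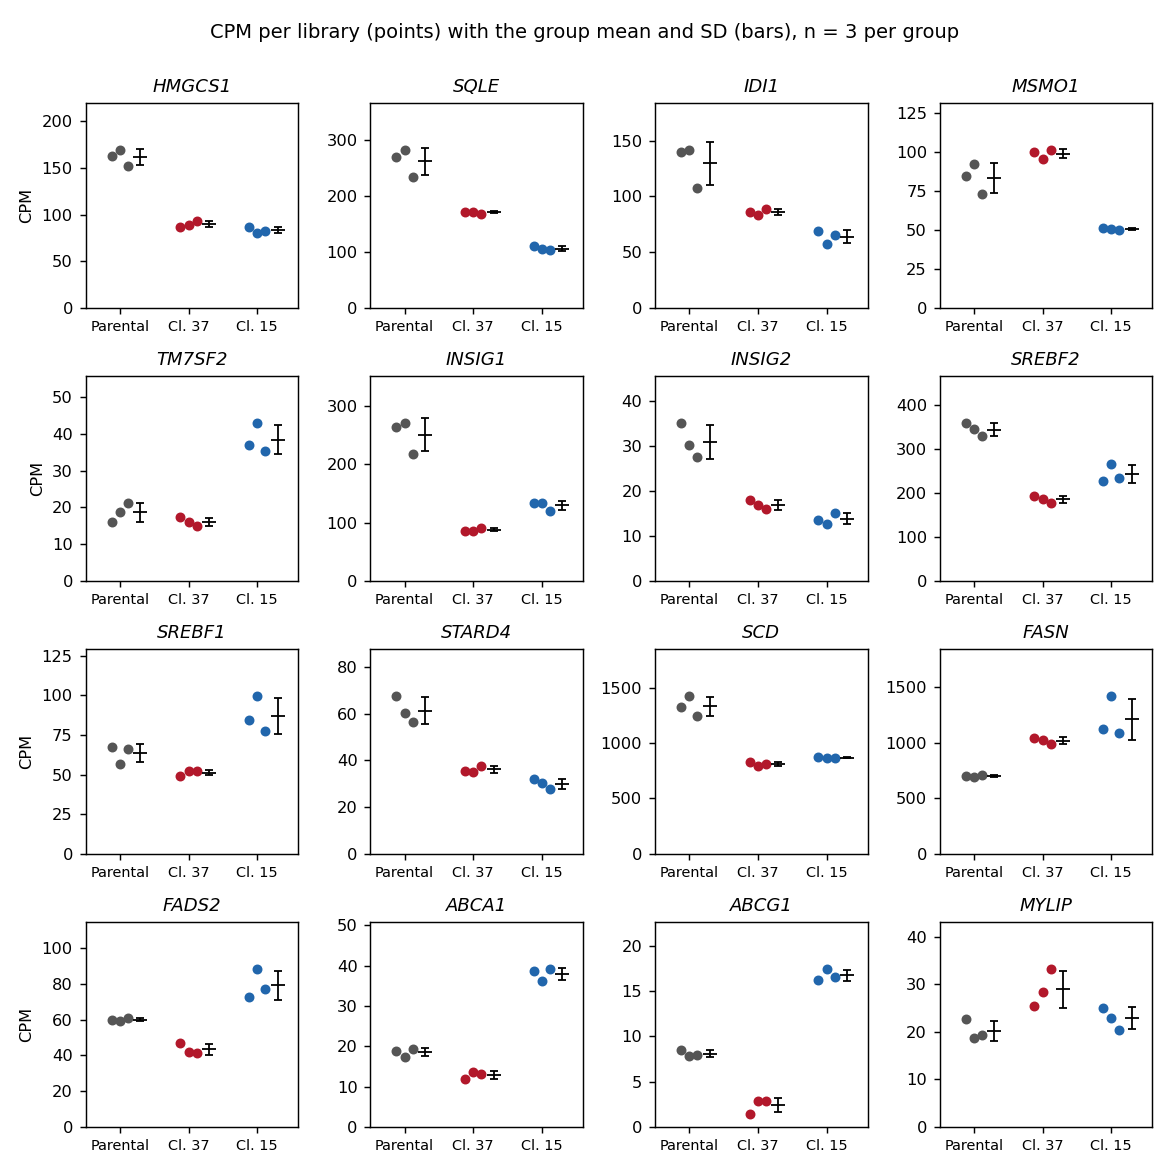
CPM (vertical axis, from 0) of 16 genes in each library of the parental line, clone 37 and clone 15 (horizontal axis), as points, with the group mean and SD of 3 libraries beside them. HMGCS1, SQLE, IDI1, INSIG1, INSIG2, SREBF2, STARD4 and SCD are highest in parental cells, and TM7SF2, ABCA1 and ABCG1 are highest in clone 15.

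Fatty acid genes did not move as one. Of 8 members, clone 37 had 2 higher and 5 lower, with 54.0% of all tested genes called. Clone 15 had 3 higher and 1 lower, a share close to the 51.4% called among all tested genes. Their summed level was 3164 to 3367 CPM in parental cells, 2938 to 3026 CPM in clone 37 and 3395 to 3702 CPM in clone 15, so that clone 37 lay below and clone 15 above the parental range. SCD and FASN, a desaturase and the synthase of the same pathway, moved in opposite directions in both clones.

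FASN, fatty acid synthase, stood at 704, 692 and 711 CPM in parental cells, at 1045, 1025 and 986 CPM in clone 37 and at 1122, 1418 and 1089 CPM in clone 15. Every clone library exceeded every parental library, and clone 15 replicate 2 was the highest. The increase was 0.51 ± 0.07 in clone 37 (edgeR adjusted p = 4.32e-06) and 0.75 ± 0.10 in clone 15 (edgeR adjusted p = 1.04e-06). The FASN neighbours had medians of 0.19 and 0.39, and against them the increases were 0.32 and 0.36 (edgeR adjusted p = 0.000802 and 0.00554).

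SCD (chromosome 10, 100347124 to 100364834, plus strand), which puts the double bond into stearoyl-CoA, was the most abundant member in parental cells, at 1323, 1422 and 1248 CPM. It read 829, 795 and 811 CPM in clone 37 and 876, 865 and 866 CPM in clone 15, far below any parental library. SCD fell by 0.74 ± 0.08 in clone 37 (edgeR adjusted p = 2.9e-07) and by 0.65 ± 0.10 in clone 15 (edgeR adjusted p = 5.75e-06). The clones differed by -0.09, with a 95% interval of -0.19 to 0.01. That difference passed the threshold without clone 15 replicate 2 (-0.13, edgeR adjusted p = 0.00909).

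FADS2, the desaturase that starts the conversion of essential fatty acids, had 59.8, 59.2 and 60.7 CPM in parental cells, 46.8, 42.0 and 41.4 CPM in clone 37 and 72.5, 88.1 and 77.0 CPM in clone 15. Clone 37 lay below and clone 15 above the narrow parental range. It fell by 0.49 ± 0.07 in clone 37 (edgeR adjusted p = 1.29e-05) and rose by 0.37 ± 0.08 in clone 15 (edgeR adjusted p = 0.000709), and clone 37 was below clone 15, at -0.86 ± 0.07 (edgeR adjusted p = 7.98e-11). Relative to its 100 nearest tested genes, whose median was 0.39 in clone 15, the clone 15 difference was -0.02 (edgeR adjusted p = 0.864). FADS1, its partner desaturase, lies within the FADS2 span on the other strand of chromosome 11, and the counts used are stranded. FADS1 fell by 0.18 ± 0.06 in clone 37 (edgeR adjusted p = 0.0179), a call lost without clone 37 replicate 2 (-0.14, 0.116) or replicate 3 (-0.21, 0.0583), and differed by -0.10 in clone 15 (edgeR adjusted p = 0.317).

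ACLY, which supplies cytosolic acetyl-CoA from citrate, read 645, 699.6 and 662 CPM in parental cells, 593, 589.5 and 600.5 CPM in clone 37 and 811, 819 and 847 CPM in clone 15. The clones stood on opposite sides of the parental range. Between the clones the log2 fold change was -0.47 ± 0.05 (edgeR adjusted p = 4.51e-09). Against parental the changes were -0.20 ± 0.07 in clone 37 (edgeR adjusted p = 0.0172) and 0.27 ± 0.09 in clone 15 (edgeR adjusted p = 0.0158). With the replicate number as a block the clone 37 value had an edgeR adjusted p of 0.0666. The clone 37 call was lost without clone 37 replicate 1 (-0.20, 0.0811), 2 (-0.18, 0.0894) or 3 (-0.23, 0.0661), and the clone 15 call without parental replicate 1 (0.22, 0.120) or 3 (0.23, 0.0949). Against chromosome neighbours the clone 15 value was -0.06 (edgeR adjusted p = 0.646).

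ELOVL6, which lengthens palmitate, measured 66.1, 65.8 and 62.8 CPM in parental cells, 62.3, 57.6 and 63.6 CPM in clone 37 and 77.4, 68.4 and 79.4 CPM in clone 15. Clone 15 was highest. Clone 37 was below clone 15, at -0.29 ± 0.07 (edgeR adjusted p = 0.000876), and the clone 15 difference from parental was 0.18 (edgeR adjusted p = 0.0806), which became 0.21 (0.0352) without parental replicate 2 and 0.27 (0.00662) without clone 15 replicate 2. ACACA, the carboxylase that commits acetyl-CoA to fatty acids, rose by 0.18 ± 0.06 in clone 37 (edgeR adjusted p = 0.0111) and differed by 0.13 in clone 15 (edgeR adjusted p = 0.17). The ACACA call in clone 37 was lost without parental replicate 1 (0.16, 0.0583) or 3 (0.14, 0.120) and without clone 37 replicate 1 (0.18, 0.0551) or 3 (0.16, 0.111), and its clone 15 difference was 0.16 (0.0369) without parental replicate 2. ACSS2, which makes acetyl-CoA from acetate, fell by 0.37 ± 0.09 in clone 37 (edgeR adjusted p = 0.00307) and differed by -0.19 in clone 15 (edgeR adjusted p = 0.128). ACSS2 was called lower in clone 15 against its chromosome neighbours (-0.63, edgeR adjusted p = 1.9e-05) and with GC and length trends removed (-0.30, edgeR adjusted p = 0.0109).

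The LXR targets gave the widest gap between the clones. ABCA1 and ABCG1, the transporters that export cholesterol, were lower than parental in clone 37 and higher in clone 15. MYLIP, the ubiquitin ligase that removes lipoprotein receptors, rose in clone 37 and was not called in clone 15. The 3 genes summed to 43.9 to 49.9 CPM in parental cells, 38.7 to 49.1 CPM in clone 37 and 76.1 to 79.9 CPM in clone 15.

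ABCG1 (chromosome 21, 42199689 to 42297244, plus strand) had 8.51, 7.84 and 7.88 CPM in parental cells, 1.46, 2.81 and 2.83 CPM in clone 37 and 16.2, 17.4 and 16.6 CPM in clone 15. Its 3 groups did not come near each other, although the clone 37 values rest on 16, 29 and 35 counts. ABCG1 fell by 1.78 ± 0.21 in clone 37 (edgeR adjusted p = 1.46e-06), or 3.44-fold lower, and rose by 1.02 ± 0.13 in clone 15 (edgeR adjusted p = 3.12e-07). Clone 37 was 6.99-fold lower than clone 15, a log2 fold change of -2.81 ± 0.16 (edgeR adjusted p = 2.82e-14). The medians of its 100 nearest tested genes were 0.11, 0.21 and -0.08 in the 3 comparisons.

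ABCA1 (chromosome 9, 104781002 to 104928237, minus strand) read 18.8, 17.4 and 19.4 CPM in parental cells, 11.8, 13.6 and 13.2 CPM in clone 37 and 38.6, 36.3 and 39.1 CPM in clone 15. The order of the groups was that of ABCG1, again without overlap. It fell by 0.55 ± 0.10 in clone 37 (edgeR adjusted p = 0.000251) and rose by 1.01 ± 0.10 in clone 15 (edgeR adjusted p = 4.71e-09), and the clones differed by -1.56 ± 0.09 (edgeR adjusted p = 2.44e-14). Its E-box is the one printed above.

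MYLIP measured 22.6, 18.7 and 19.2 CPM in parental cells, 25.5, 28.3 and 33.1 CPM in clone 37 and 25.04, 22.9 and 20.4 CPM in clone 15. Clone 37 was highest, and the other two groups overlapped. It rose by 0.51 ± 0.11 in clone 37 (edgeR adjusted p = 0.000655). Clone 37 exceeded clone 15 by 0.34 ± 0.10 (edgeR adjusted p = 0.00393), a call that was lost without clone 37 replicate 3 (0.22, 0.104). The neighbours of MYLIP had a median of 0.44 between the clones, and against them the difference was -0.10 (edgeR adjusted p = 0.413).

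**Figure D4:**
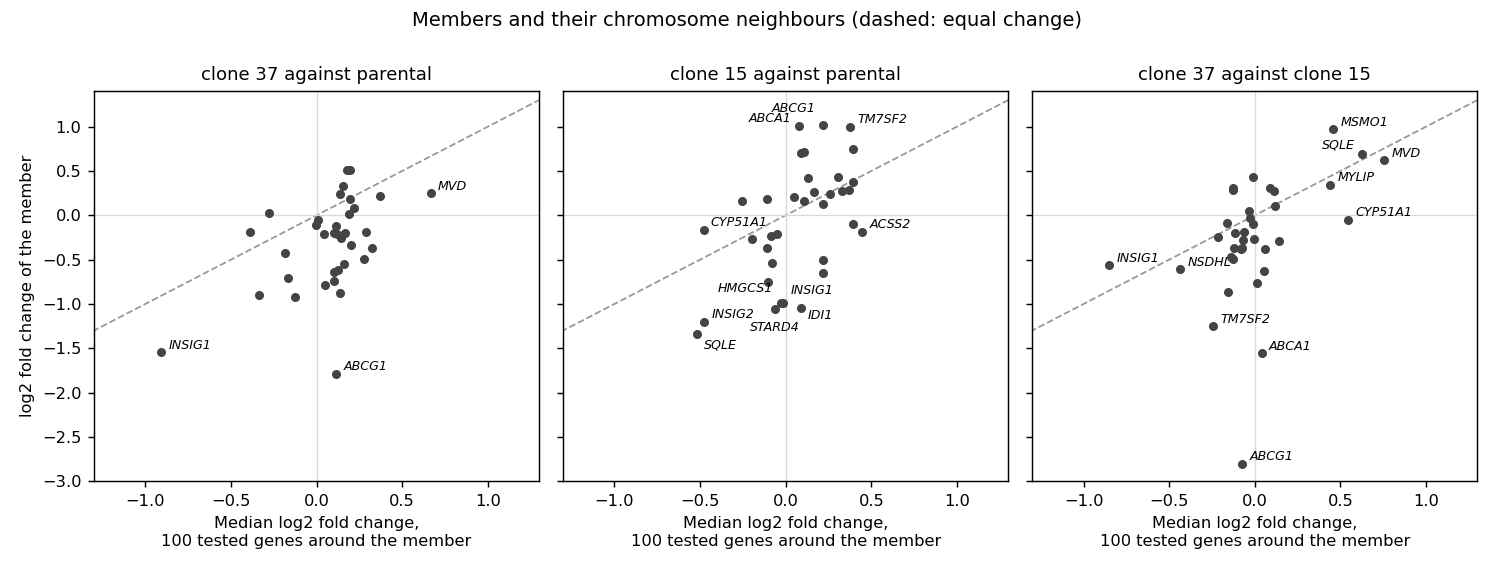
Log2 fold change of each member (vertical axis) against the median change, also in log2, among the 100 tested genes nearest to it on its chromosome (horizontal axis), in 3 panels for the 3 comparisons; the dashed line marks equal change. INSIG1 at -0.91 and MVD at 0.67 have the neighbourhoods that moved most in clone 37 against parental, and ABCG1 lies far below the line in clone 37 while its neighbours had a median of 0.11.

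Compared with neighbouring genes, the main decreases remained calls. Against the 100 nearest tested genes, clone 37 against parental gave -1.01 for HMGCS1, -0.74 for SQLE, -0.79 for SREBF2, -0.83 for STARD4 and -0.84 for SCD, with edgeR adjusted p values of 9.08e-10, 1.73e-07, 1.17e-08, 1.94e-07 and 1.06e-07. Clone 15 gave -0.95 for HMGCS1, -0.82 for SQLE and -0.998 for STARD4 (8.6e-10, 4.39e-08 and 4.04e-09). The SQLE neighbours had a median of -0.52 in clone 15. Some values kept their call but moved by over 1.5 times, among them INSIG1, INSIG2 and FASN in clone 37 and SQLE, INSIG2, FASN and TM7SF2 in clone 15, whose values stand above. In clone 37 against parental the others became smaller for ACAT2 (0.18), FDPS (-0.25) and MYLIP (0.33), and larger for SREBF1 (-0.53), FADS1 (-0.47), FADS2 (-0.77), ACLY (-0.36), ACSS2 (-0.69) and SC5D (-0.30). Between the clones MSMO1 became 0.51.

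Other calls did not survive that comparison. In clone 37 against parental the sign turned for MSMO1 (-0.15), ACACA (-0.0182) and NSDHL (0.20, edgeR adjusted p = 0.0397), as it did for the uncalled DHCR7 (-0.18, edgeR adjusted p = 0.0272). In clone 15 the small increases of LSS (-0.0124), DHCR7 (-0.0857) and ACLY (-0.0574) turned sign, and FDPS (-0.15), FDFT1 (0.16) and EBP (0.10) were no longer called. Between the clones FDPS (-0.08), NSDHL (-0.17), INSIG2 (0.22), STARD4 (0.16) and FASN (-0.03) were no longer called. The same comparison added calls. These were LSS (-0.24), TM7SF2 (-0.39) and HSD17B7 (0.30) in clone 37, FADS1 (-0.49), ELOVL6 (0.29), ACSS2 (-0.63) and MYLIP (0.41) in clone 15, and CYP51A1 (-0.60) between the clones. What moved the neighbouring genes was not tested.

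Other settings touched mostly small changes. Removing trends with GC content and length ended the calls of NSDHL (-0.20), ACLY (-0.13) and FADS1 (-0.10) in clone 37, of FDFT1 (0.17), LSS (0.15), EBP (0.08) and DHCR7 (0.12) in clone 15, and of STARD4 (0.02), INSIG2 (0.07), HSD17B7 (0.21) and FDPS (-0.03) between the clones. It added TM7SF2 (-0.29) in clone 37, PMVK (-0.50), ACACA (0.18), ELOVL6 (0.39) and ACSS2 (-0.30) in clone 15, and ACACA (0.14) between the clones. Unstranded counts ended the calls of MSMO1 (0.18), ACACA (0.14) and FADS1 (-0.17) in clone 37 and of FDPS (-0.14), FDFT1 (0.15), LSS (0.19), EBP (0.21), DHCR7 (0.23) and ACLY (0.23) in clone 15, and added HSD17B7 (-0.32) there. With GC and length trends removed, values that kept their call and moved by over 1.5 times were FDPS (-0.43), SC5D (-0.33) and STARD4 (-0.70) in clone 15 and PMVK (-0.26), LSS (-0.20), SC5D (0.13), DHCR7 (-0.12) and SREBF2 (-0.22) between the clones.

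Levels of different genes were compared per kilobase of the longest annotated transcript. In parental cells SCD was highest, at 248 ± 16 CPM per kb (SD, n = 3), followed by ACLY at 154 ± 6.5. SQLE at 88.4 ± 8.3, INSIG1 at 83.3 ± 9.4 and FASN at 82.0 ± 1.1 CPM per kb came next and overlapped one another. The lowest were ABCG1 at 2.32 ± 0.11, ABCA1 at 1.76 ± 0.096 and the uncertain CYP51A1 at 1.75 ± 0.29 CPM per kb. ACLY took the first place in clone 15, at 190 ± 4.3 CPM per kb beside 162 ± 1.1 for SCD, and INSIG1 dropped to 29.02 ± 0.84 in clone 37.

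**Figure D5:**
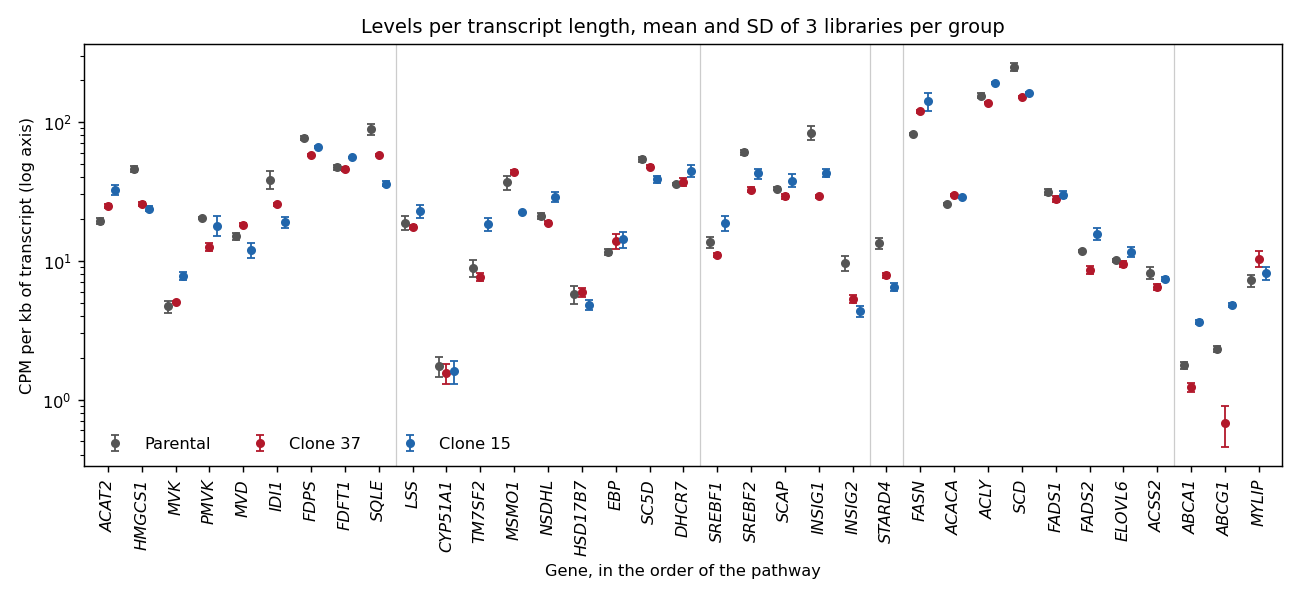
Mean level of each gene in CPM per kb of transcript (vertical axis, log scale) with the SD of 3 libraries, by group, with genes in the order of the pathway (horizontal axis). SCD and ACLY are at the top, with INSIG1 at 83.3 in parental cells and 29.02 in clone 37. ABCA1, ABCG1 and CYP51A1 are at the bottom in parental cells and clone 37. In clone 15 INSIG2, at 4.32, lies below ABCG1, at 4.81.

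Another 46 genes of the wider pathway, a list drawn up with earlier results of these data known, were examined in the same fits, and 45 of them passed the filter, all but CH25H. Clone 37 against parental called 25 of the 45, 13 higher and 12 lower. Set against chromosome neighbours, the clone 37 calls were 20, 5 higher and 15 lower. Clone 15 called 28, 9 higher and 19 lower. Against chromosome neighbours that count was 13, 2 higher and 11 lower, and removal of trends with GC and length left 18, 6 higher and 12 lower. Clone 37 against clone 15 called 33, 20 higher and 13 lower. The backgrounds are the shares given above for all genes, 54.0%, 51.4% and 57.7%. Their medians were -0.02, -0.13 and 0.11 on the log2 scale.

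Of 10 genes for SREBP processing and sterol sensing, all 10 were called in clone 15, 8 of them lower, where 51.4% of all tested genes were called and 26.2% were lower. Among them ERLIN1 had an edgeR adjusted p of 0.0475 and groups that overlapped. In clone 37, 4 of the 10 were called, 2 of them lower, beside 54.0% of all genes. RNF139, a ubiquitin ligase of the endoplasmic reticulum, had 36.0, 40.0 and 37.7 CPM in parental cells and 23.9, 23.3 and 24.7 CPM in clone 15, and fell by 0.69 ± 0.10 (edgeR adjusted p = 1.35e-06). Its neighbours on chromosome 8 had a median of -0.53, and against them the difference was -0.16 (edgeR adjusted p = 0.178). MBTPS1, the first protease that cuts SREBPs, had 296, 286 and 283 CPM in clone 37 and 171, 168 and 170.0 CPM in clone 15, a difference of 0.77 ± 0.05 (edgeR adjusted p = 5.67e-13). Its neighbours had a median of 0.80, and against them the value was -0.03 (edgeR adjusted p = 0.64).

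Among genes of sterol transport and disposal, NPC2, which hands cholesterol out of lysosomes, had 24.9, 27.8 and 27.1 CPM in parental cells, 12.5, 14.6 and 11.7 CPM in clone 37 and 26.1, 28.2 and 30.3 CPM in clone 15. Clone 37 alone was low. NPC2 fell by 1.07 ± 0.10 against parental (edgeR adjusted p = 1.31e-07), and clone 37 was below clone 15, at -1.12 ± 0.10 (edgeR adjusted p = 1.97e-10). Its neighbours had medians of -0.42 and -0.53, and against them NPC2 had -0.65 and -0.59 (edgeR adjusted p = 6e-05 and 1.96e-05). The sterol hydroxylases CYP46A1 and CYP27A1 were expressed at about the level of 1 CPM. CYP46A1 fell by 1.32 ± 0.35 in clone 37 (edgeR adjusted p = 0.00439), from 1.37 to 2.07 CPM to 0.548 to 0.968 CPM. CYP46A1 was also below its clone 15 level, at -0.98 ± 0.36 (edgeR adjusted p = 0.0228), a call lost without clone 37 replicate 1 (-0.83, 0.107) or 3 (-0.85, 0.106) and without clone 15 replicate 1 (-0.78, 0.0949). That call was also lost against chromosome neighbours (-0.48, edgeR adjusted p = 0.292), with unstranded counts (-0.81, 0.0693), with libraries thinned to the depth of the smallest (-0.82, 0.0726) and in DESeq2 (-0.96, 0.0828). CYP27A1 rose by 1.15 ± 0.34 in clone 37 (edgeR adjusted p = 0.00831), from 0.612 to 0.863 CPM to 1.26 to 2.02 CPM, and had 0.99 (0.0558) without clone 37 replicate 3.

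LPIN1, a phosphatidate phosphatase and SREBP target, fell by 1.10 ± 0.09 in clone 15 (edgeR adjusted p = 1.72e-10), from 54.7, 53.6 and 56.2 CPM to 24.8, 26.4 and 27.1 CPM. DHDDS, which builds dolichol precursors from farnesyl diphosphate, rose by 0.81 ± 0.09 in clone 15 (edgeR adjusted p = 6.2e-08), from 26.8, 27.5 and 28.8 CPM to 47.6, 49.0 and 52.5 CPM. In both genes the groups lay far apart. Both were also called in the same direction in clone 37, LPIN1 at -0.50 and DHDDS at 0.39 (edgeR adjusted p = 7.88e-06 and 0.0003). Their neighbours there had medians of -0.38 and 0.27. The LPIN1 neighbours had a median of -0.52 in clone 15, and against them LPIN1 had -0.58 (edgeR adjusted p = 7.51e-06). For DHDDS the neighbours had 0.26, and the value against them was 0.55 (edgeR adjusted p = 2.59e-05). NR1H3, which encodes LXR alpha, rose by 0.91 in clone 37 (edgeR adjusted p = 3.79e-05) and by 0.41 in clone 15 (edgeR adjusted p = 0.0316). NR1H2, which encodes LXR beta, had -0.19 (edgeR adjusted p = 0.0867) and 0.27 (edgeR adjusted p = 0.0313). In clone 37 and clone 15, the neighbours' medians were 0.18 and 0.29 for NR1H3 and -0.22 and 0.20 for NR1H2.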

How the data were processed

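Total RNA from 9 HEK293T libraries was depleted of ribosomal RNA and made into directional libraries, per the labels' protocols. The authors deposited raw read counts per gene, 1 file per library. The submitters' processing notes name STAR 2.7.10a, FastQC 0.11.9 and hg38; the annotation release and trimming are not given in the sources used here. The stranded column 4 was used, which held 92.6% to 94.0% of stranded counts. The 4 summary entries were left out; reads at several places were 4.59% to 14.0% of read pairs, and lower in clone 15.

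Each comparison was fitted on its 6 libraries with edgeR 4.0.16 in R 4.3.3 (filterByExpr, TMM, robust quasi-likelihood F test, two-sided), with Benjamini-Hochberg adjustment over all genes tested; calls have an adjusted p under 0.05. The SE is the log2 fold change over the square root of F. A value that follows an estimate in parentheses after a left-out library is its adjusted p from the same edgeR test. CPM scale counts to the sum of gene counts of the library. Biological coefficients of variation were 6.22%, 8.58% and 6.30%. Neighbours are the 100 nearest tested genes. DESeq2 1.42.0 served as an alternative, and the code was tested on simulated data.

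The members, their roles and the further lists were chosen with earlier results of these data known. Values per library are given for up to 3 called, non-overlapping members with the largest change per role and comparison, and likewise for up to 3 of the 46 further genes per comparison; SCAP, NR1H2, NR1H3 and other members are given by their fold change, and NR1H2 and NR1H3 were picked after their values were seen.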

Additional observations from a re-analysis of the deposited data

Results flagged for a closer look

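Among the members, 8 were called in opposite directions in the 2 clones against parental. All 8 were also called in the direct comparison of clone 37 with clone 15. They are 22.9% of the 35 members, and 6.59% of the 16258 genes tested in all 3 comparisons met the same rule. Opposite calls make the direct call likely, because it uses the same clone libraries, so it is not separate support. The members were chosen with earlier results of these data known. The edgeR log2 fold changes of clone 37 against clone 15 were -2.81 for ABCG1, -1.56 for ABCA1, 0.97 for MSMO1, -0.86 for FADS2, -0.76 for SREBF1, 0.62 for MVD, -0.61 for NSDHL and -0.47 for ACLY. For MSMO1 and NSDHL the clone 37 call, and for ACLY both calls against parental, were lost when single libraries were left out. Against chromosome neighbours only ABCA1 and ABCG1 of the 8 had calls in opposite directions in the 2 clones.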

How the results depend on the processing

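Testing without the filter on low counts ended the calls of NSDHL, ACACA, ACLY and FADS1 in clone 37 and of FDFT1 and EBP in clone 15. DESeq2 ended those of MSMO1 and NSDHL in clone 37 and EBP in clone 15. Scaling with RLE size factors ended that of EBP in clone 15. A filter of at least 1 CPM in 3 libraries ended MSMO1 and added TM7SF2 in clone 37. Fitting all 9 libraries together ended NSDHL in clone 37 and added HSD17B7, SCAP and ELOVL6 in clone 15. Thinning to the smallest library added EBP in clone 37 and ELOVL6 in clone 15. Across 16 alternatives per comparison, 20, 18 and 18 called members kept their call and direction in all of them (clone 37 against parental, clone 15 against parental, clone 37 against clone 15). Total counts of called members stayed within 1.5 times the main 26, 26 and 28 throughout, from 21 to 28, 21 to 29 and 21 to 28; leaving out 1 library gave 21 to 28, 22 to 27 and 26 to 28. Counts by direction moved more. Higher calls in clone 15 went from 14 to 9 against chromosome neighbours and with unstranded counts, higher calls between the clones from 9 to 5 against neighbours, and those in clone 37 from 6 to 4 with unstranded counts or without parental replicate 1 or 3 or clone 37 replicate 1 or 3. Among the 45 further pathway genes tested, the 28 calls in clone 15 dropped to 13 (2 higher and 11 lower) against chromosome neighbours. They dropped to 18 (6 higher and 12 lower) after removal of GC and length trends. The 25 calls in clone 37, 13 higher and 12 lower, became 20 against chromosome neighbours, 5 higher and 15 lower. The cause of these shifts was not tested.

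Called values changed sign only against chromosome neighbours, and there the uncalled DHCR7 in clone 37 became a call of the other sign; uncalled values near 0, such as HSD17B7, MVK and ELOVL6 in clone 37, CYP51A1 and ACACA in clone 15 and EBP, CYP51A1, HMGCS1 and FADS1 between the clones, also changed sign in some settings without a call. For clone 37 against parental, MVD became -0.41, MSMO1 -0.15, NSDHL 0.20, DHCR7 -0.18 and ACACA -0.0182. For clone 15 against parental, LSS became -0.0124, DHCR7 -0.0857, ACLY -0.0574 and FADS2 -0.0210. Between the clones, MVD became -0.14, INSIG1 0.28, MYLIP -0.10 and MBTPS1 -0.0316. These values subtract the median of the nearby genes; what moved those genes was not tested.

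Over 17606 genes, deviations of same-numbered libraries from their group means correlated between -0.162 and 0.0228. With 3 libraries per group, this check cannot show whether a replicate number marks a shared batch or day. A fit with the number as a block called 24, 25 and 28 members; of the calls lost, NSDHL and ACLY in clone 37 and EBP in clone 15 are given in the report. Depth limits ABCG1, with 16 to 35 counts in clone 37, and CYP51A1, with 50 to 173 per library.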
